A study of Bos taurus with 4 samples.

Results

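The aminoacyl-tRNA synthetases were described in bovine blastocysts that had developed after vitrification at the morula stage and in their controls. They were taken as every EmbryoGENE EMBV3 probe whose annotated symbol is 1 letter followed by ARS, with or without a final 2, or is FARSA or FARSB. This gave 43 of 43794 probes and 28 of 15229 gene symbols, of which 23 probes of 16 genes were cytosolic enzymes and 20 probes of 12 genes were mitochondrial enzymes, marked by the final 2. GARS and KARS, which encode the enzymes of both compartments, have no final 2 and were counted as cytosolic. EPRS and the cytosolic enzymes for aspartate, glutamine and valine were not analysed here. Of the 16 cytosolic genes, 14 have a newer symbol in the ARS-UCD2.0 gene table (YARS1 for YARS and AARS1 for AARS, for example), and the symbols of the array annotation are kept here.

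All embryos were produced in vitro from abattoir oocytes and were cultured to morulae, which were assigned at random to a treatment. The vitrified group was cooled on a Cryotop in liquid nitrogen, and the control group was cultured on without freezing. The labels give expanded blastocysts of day 7 in pools of 7 embryos, beef breed and, for the control pools too, cryopreservation "Yes". The study's methods instead place the collection of the morulae on day 7, with culture to the blastocyst following it, and allow smaller pools. Each of the 4 arrays of 1 slide held amplified RNA of 1 vitrified and 1 control pool, with the vitrified pool in Cy5 on arrays 1 and 2 and in Cy3 on arrays 3 and 4. By the study's methods the biological replicates were separate cycles of fertilization, culture and cryopreservation, each giving 1 pool per treatment, but the labels do not say which cycle an array holds. The p values rest on the spread between these 4 pairs of pools that is left after a term for the dye. The variance of each probe was also moderated toward that of all tested probes (limma, 2 residual and 6.80 prior degrees of freedom).

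Ratios are log2 of vitrified over control, so that 1 is a doubling, and a fold change is the mean of 4 ratios with the SE of a limma fit that held a term for the dye. A reading is 1 spot in 1 dye of 1 array, and it was above background when its signal exceeded the mean of the negative control spots by more than 2 SD. To be tested, a probe had to be above background in 4 or more of its 8 readings, which held for 28944 probes, and each of the 11417 genes they covered was represented by its brightest probe. No probe of the whole array passed an adjusted p under 0.05 (limma, lowest 0.191). Ratios of all tested probes correlated weakly between arrays, with r across probes from -0.15 (arrays 1 and 4) to 0.18 (arrays 1 and 2). With 4 arrays, precision is limited by their number.

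Aminoacyl-tRNA synthetases join each amino acid to its tRNA and thereby set the meaning of the genetic code. Animal cells carry a cytosolic set, several members of which are bound together in the multisynthetase complex, and a mitochondrial set that is also encoded in the nucleus and charges the tRNAs of the mitochondrial genome. Class I enzymes, among them those for tyrosine, methionine and arginine, and class II enzymes, among them those for serine, threonine and lysine, have unrelated catalytic folds. Several cytosolic synthetase genes are induced by ATF4 when amino acids run short, and blastocysts are embryos with rising protein synthesis as the trophectoderm pumps fluid into the blastocoel.

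Synthetase transcripts differed little between the groups, and most differences were smaller than the spread between arrays. All 23 cytosolic probes were tested, 21 of them with all 8 readings above background, and 17 of the 20 mitochondrial probes were tested, 11 of them with all 8 readings above background. The 3 probes left out had no reading above background. They were the sole probe of PARS2, the mitochondrial prolyl-tRNA synthetase, 1 of 2 probes of RARS2 and 1 of 3 probes of YARS2. No spot was saturated, and the highest raw median among the synthetases was 30272. Of the 27 genes tested, 2 had a higher level after vitrification with an unadjusted p under 0.05, YARS and YARS2, against 3.5% of all genes tested, and 0 were lower, against 5.3%. None reached a fold change of at least 2 at that p, against 0.114% of all genes higher and 0.28% lower. At an adjusted p under 0.05 the count was 0 of 27 (limma, lowest 0.598) and 0% of all genes.

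The log2 fold change was positive for 20 of the 27 genes (74.1%) and negative for 7, while it was positive for 50.4% of all genes tested. The median was 0.11 over the synthetase genes and 0.0023 over all genes. The ratio was positive on all 4 arrays in 4 genes, YARS, MARS, CARS and YARS2, against 7.49% of all genes, and negative on all 4 arrays in 0, against 8.33%. The SE of the fold changes ran from 0.144 to 0.189. The 95% interval excluded a 2-fold change in either direction for 27 of 27 genes and a 1.5-fold change for 18. Over all 11417 genes tested, it excluded a 2-fold change for 10975 and a 1.5-fold change for 7341. For no gene's brightest probe did the 4 vitrified pools lie wholly above or below the 4 control pools, against 1.52% of all genes higher and 2.08% lower.

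**Figure D1:**
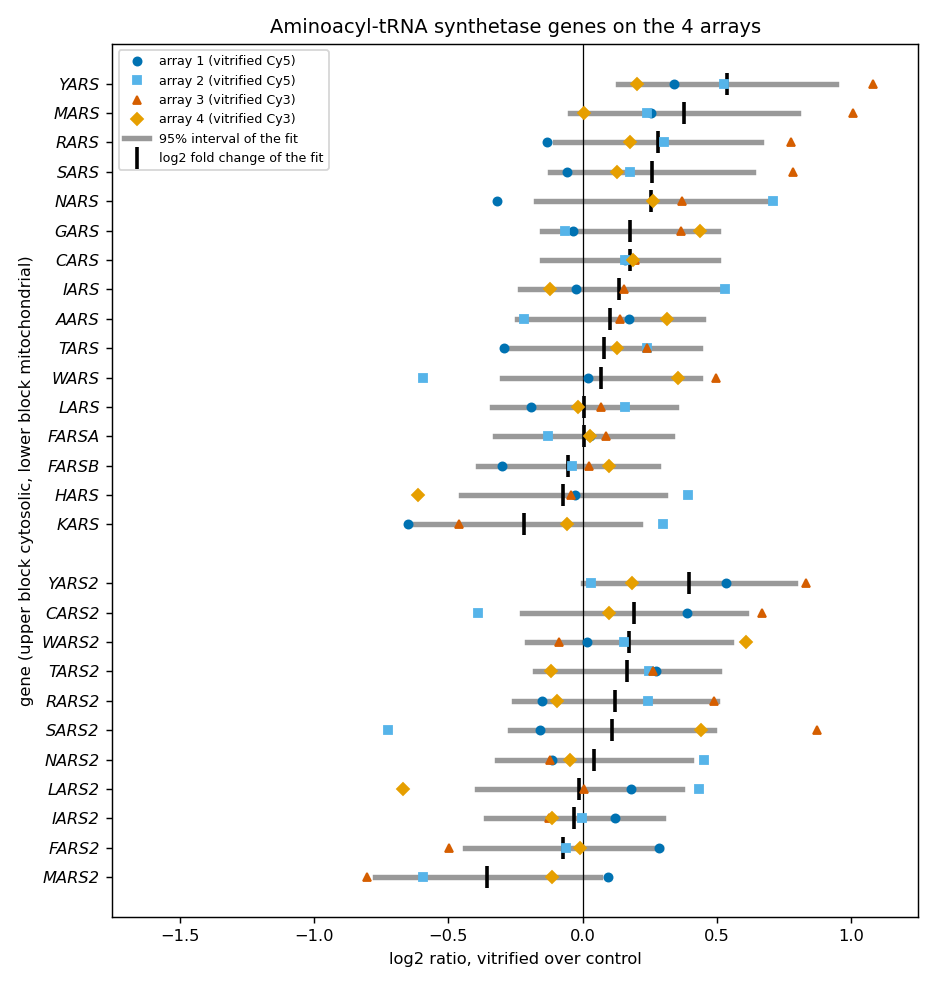
Log2 ratio of vitrified over control blastocysts for the brightest tested probe of each synthetase gene (horizontal axis, log2), with 1 symbol for each of the 4 arrays, a black mark for the log2 fold change and a grey bar for its 95% interval. Only the bars of YARS and YARS2 stay above 0, and the ratios of most genes fall on both sides of 0.

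The tyrosine enzymes had the highest fold changes of either compartment. YARS, the cytosolic tyrosyl-tRNA synthetase, had normalized log2 intensities of 10.45, 11.03, 11.42 and 11.19 in the vitrified pools of arrays 1 to 4 and of 10.11, 10.50, 10.34 and 10.99 in the control pools. The vitrified pool was the higher on each array, most of all on array 3, but the vitrified pool of array 1 lay below the control pools of arrays 2 and 4, so that the groups overlapped. Its ratios were 0.34, 0.53, 1.08 and 0.20, which gave a log2 fold change of 0.54 (SE 0.18, 95% interval 0.13 to 0.94; limma, unadjusted p = 0.0154, adjusted p = 0.598). YARS passed the unadjusted threshold under each alternative run except without array 2 (0.49, unadjusted p = 0.0600) and without array 3 (0.32, unadjusted p = 0.116; limma), and its adjusted p over these alternatives ran from 0.0996 to 1.00.

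YARS2, the mitochondrial tyrosyl-tRNA synthetase, was read by a pair of tested probes. Its brightest probe had normalized log2 intensities of 9.26, 9.07, 9.43 and 9.02 in the vitrified and of 8.72, 9.04, 8.60 and 8.83 in the control pools. The vitrified pool was higher on each array, with little between the pools on array 2, and the groups overlapped. The ratios were 0.53, 0.031, 0.83 and 0.18, and the log2 fold change was 0.40 (SE 0.17; limma, unadjusted p = 0.0499, adjusted p = 0.651). This call was lost without array 1 (0.27, unadjusted p = 0.251) and without array 3 (0.23, unadjusted p = 0.261; limma), and under 7 of the processing alternatives. The dimmer probe had 6.31, 6.44, 7.11 and 7.23 in the vitrified and 6.94, 6.90, 7.38 and 7.95 in the control pools, where the vitrified pool was lower on each array. It was above background in 2 of 4 vitrified and 4 of 4 control readings, so that the control readings alone met the filter, and its ratios of -0.63, -0.47, -0.28 and -0.72 (log2 fold change -0.52) are given as a description with no test. With the mean of both probes, which is among those 7 alternatives, the fold change of the gene was -0.064. This mean takes in the dimmer probe and is likewise a description with no test. The positions of the probes in the transcript were not used here, so that what either probe detects was not tested.

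The methionine enzymes had the next largest values and ran apart. MARS, the cytosolic methionyl-tRNA synthetase, had normalized log2 intensities of 9.82, 10.07, 9.70 and 10.04 in the vitrified and of 9.56, 9.83, 8.70 and 10.03 in the control pools. The control pool of array 3 was the lowest of the 8, and the pools of array 4 were nearly equal. The ratios were 0.25, 0.24, 1.01 and 0.0044, and the log2 fold change was 0.38 (SE 0.19; limma, unadjusted p = 0.0759, adjusted p = 0.682). MARS2, the mitochondrial methionyl-tRNA synthetase, had 10.29, 9.98, 9.64 and 9.88 in the vitrified and 10.20, 10.58, 10.45 and 9.996 in the control pools. The vitrified pool was lower on arrays 2, 3 and 4 and higher on array 1, and the groups overlapped. Its ratios of 0.096, -0.59, -0.80 and -0.11 gave a log2 fold change of -0.35 (SE 0.19; limma, unadjusted p = 0.0888, adjusted p = 0.697), the most negative of the 27 genes. Neither gene passed the unadjusted threshold with 4 arrays.

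**Figure D2:**
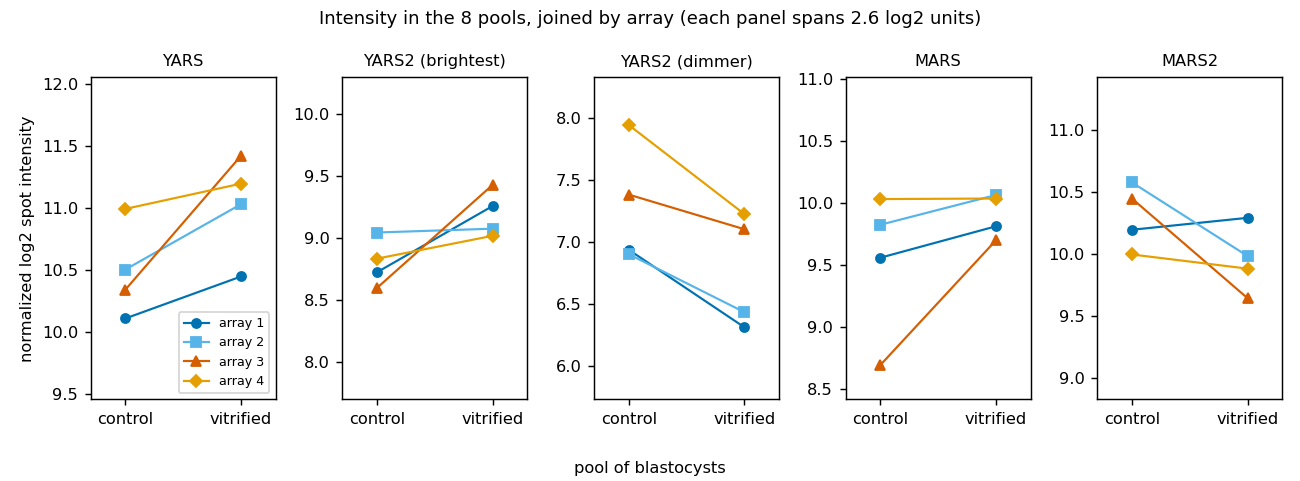
Normalized log2 spot intensity (vertical axis) of 5 probes in the control and vitrified pools, with a line joining the pools of an array and each panel spanning the same number of log2 units. All 4 lines go up for YARS and the brightest probe of YARS2, all 4 go down for the dimmer probe of YARS2, and the line of array 3 is the steepest for MARS and MARS2.

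Among the other cytosolic enzymes, those bound in the multisynthetase complex, in which scaffold proteins hold several synthetases together, were represented by MARS, RARS, IARS, LARS and KARS. Of these 5 genes 4 had a positive log2 fold change, with a median of 0.14, beside 9 of 11 and 0.10 for the cytosolic genes outside the complex. RARS, the arginyl-tRNA synthetase, had normalized log2 intensities of 12.87, 12.74, 12.93 and 13.04 in the vitrified and of 13.001, 12.44, 12.15 and 12.87 in the control pools. The vitrified pool was higher on arrays 2 to 4 only. The ratios were -0.13, 0.30, 0.78 and 0.18, and the log2 fold change was 0.28 (SE 0.17; limma, unadjusted p = 0.131, adjusted p = 0.724). IARS, for isoleucine, had 0.14 and LARS, for leucine, had 0.0047.

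GARS and KARS each encode the cytosolic and the mitochondrial enzyme from 1 gene, for glycine and lysine. GARS had normalized log2 intensities of 13.59, 13.31, 13.12 and 13.58 in the vitrified and of 13.62, 13.37, 12.76 and 13.14 in the control pools. The pools of arrays 1 and 2 were close, and the vitrified pool was higher on arrays 3 and 4, so that the ratios of -0.035, -0.065, 0.37 and 0.44 split by dye orientation (dye term, limma, unadjusted p = 0.153). The log2 fold change was 0.18 (SE 0.14; limma, unadjusted p = 0.255, adjusted p = 0.789). KARS had 14.23, 14.81, 14.04 and 14.63 in the vitrified and 14.88, 14.51, 14.50 and 14.69 in the control pools. The vitrified pool was lower on arrays 1, 3 and 4 and higher on array 2. The log2 fold change of KARS was -0.22 (SE 0.19; limma, unadjusted p = 0.282, adjusted p = 0.805), the lowest among the cytosolic genes, but its dimmer probe had 0.35 (unadjusted p = 0.103), with ratios of 0.12, 0.95, 0.51 and -0.18.

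None of the other cytosolic enzymes passed the unadjusted threshold. SARS, for serine, had a log2 fold change of 0.26 with ratios of -0.058, 0.17, 0.78 and 0.13, and NARS, for asparagine, had 0.25 with ratios of -0.32, 0.71, 0.37 and 0.26. CARS, for cysteine, had 0.16, 0.16, 0.19 and 0.19 on arrays 1 to 4, the narrowest spread of the 27 genes (SD 0.019, n = 4), but with the moderated SE of 0.14 its fold change of 0.18 did not pass (limma, unadjusted p = 0.256, adjusted p = 0.789). AARS (alanine) had 0.10, TARS (threonine) 0.079 and WARS (tryptophan) 0.070. FARSA and FARSB, the catalytic and the other subunit of the phenylalanine enzyme, had 0.0033 and -0.054, and HARS (histidine) had -0.072, with ratios from -0.61 on array 4 to 0.39 on array 2.

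Among the mitochondrial enzymes 7 of 11 genes had a positive log2 fold change, and YARS2 alone passed the unadjusted threshold. CARS2, for cysteine, had 0.19 with ratios of 0.39, -0.39, 0.67 and 0.097 and was above background in 3 of 4 vitrified and 4 of 4 control readings. WARS2 (tryptophan) and TARS2 (threonine) each had 0.17, and RARS2 (arginine) had 0.12. SARS2, the mitochondrial seryl-tRNA synthetase, had ratios of -0.16 and -0.73 with the vitrified pools in Cy5 and of 0.87 and 0.44 with them in Cy3. It was the 1 synthetase gene of 27 with a dye term at an unadjusted p under 0.05 (limma, unadjusted p = 0.00978), against 7.21% of all genes, and its fold change of 0.11 averages over that split. NARS2 (asparagine) had 0.043, LARS2 (leucine) -0.012, IARS2 (isoleucine) -0.031 and FARS2 (phenylalanine) -0.072.

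By catalytic class, a split made after the values were seen, the median log2 fold change was 0.15 over 14 class I genes, 11 of them positive, and 0.079 over 13 class II genes, 9 of them positive.

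The compartments were compared on each array, with GARS and KARS, which serve both, counted among the cytosolic genes. The median ratio of the 16 cytosolic genes was -0.031, 0.21, 0.22 and 0.13 on arrays 1 to 4 (SD 0.11, n = 4), with 6, 11, 14 and 12 genes positive. That of the 11 mitochondrial genes was 0.12, 0.031, 0.0039 and -0.048 (SD 0.070, n = 4), with 8, 6, 6 and 4 genes positive. All genes tested had medians of -0.043, 0.019, 0.016 and 0.0042 on the same arrays. Cytosolic genes were thus the higher on arrays 2, 3 and 4, by 0.18, 0.21 and 0.18, and the lower on array 1, by 0.15. The mean of these differences was 0.10 (SD 0.17, n = 4), smaller than their spread, and the medians of the fitted fold changes were 0.12 and 0.11, which differed by 0.011. Arrays 1 and 2, with the same dye orientation, thus differed in direction, and no test was made over the genes.

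**Figure D3:**
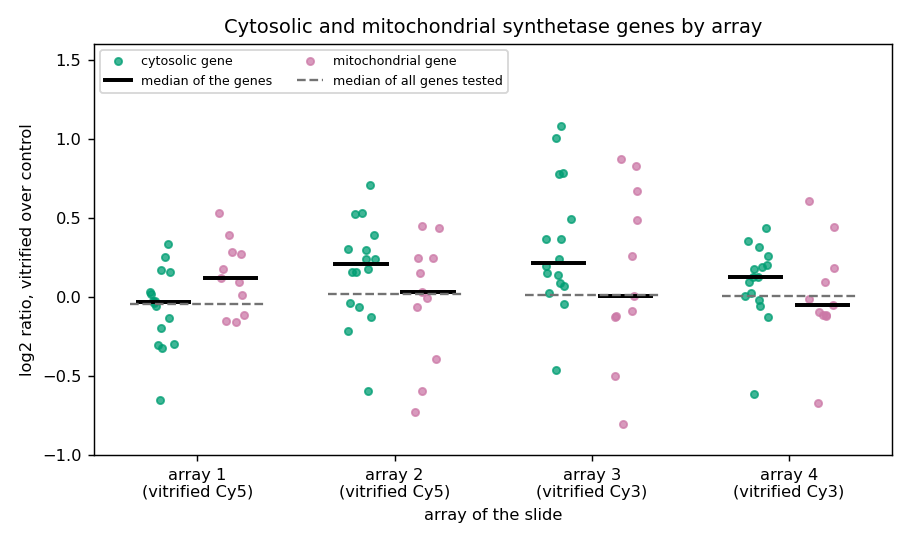
Log2 ratio of vitrified over control for each cytosolic and mitochondrial synthetase gene (points) on the 4 arrays, with black bars for the median of each compartment and dashed lines for the median of all genes tested. The cytosolic median lies above the mitochondrial one on arrays 2 to 4 and below it on array 1.

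Enzymes that charge the same amino acid in the different compartments were set side by side in 12 pairs for 11 amino acids, as FARS2 pairs with both FARSA and FARSB. The log2 fold changes of both genes were positive in 7 pairs, negative in 1 and opposite in 4. The cytosolic gene had the higher value in 9 pairs and the mitochondrial gene in 3. The difference had 1 direction on all 4 arrays in 2 pairs. MARS exceeded MARS2 by 0.16, 0.83, 1.81 and 0.12 on arrays 1 to 4 (mean 0.73, SD 0.79, n = 4), and RARS exceeded RARS2 by 0.019, 0.060, 0.29 and 0.27 (mean 0.16, SD 0.14, n = 4). For each, an exact two-sided sign-flip permutation test over the 4 arrays gave p = 0.125, the smallest that 4 arrays allow, and no pair could therefore pass 0.05. YARS and YARS2 differed by 0.14 (SD 0.30, n = 4), with YARS the higher on arrays 2, 3 and 4.

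**Figure D4:**
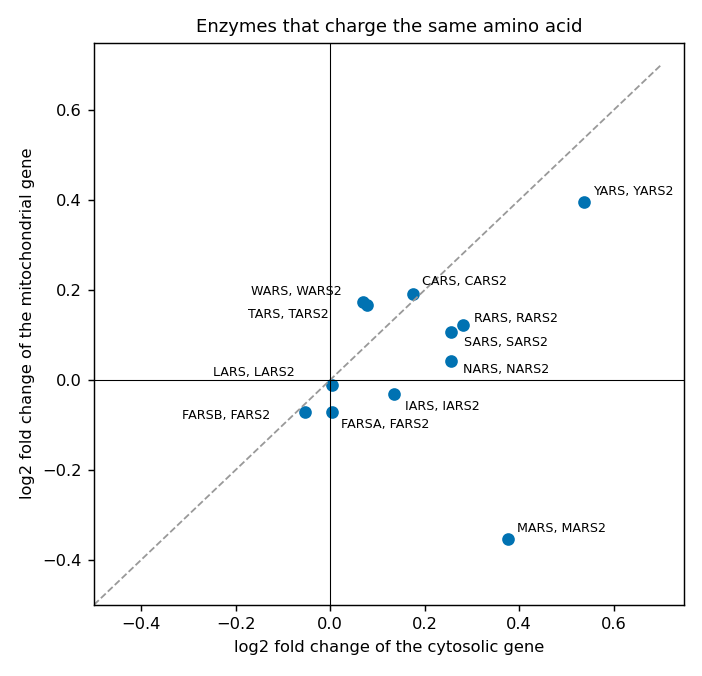
Log2 fold change of the cytosolic gene (horizontal axis) and of the mitochondrial gene (vertical axis) for the 12 pairs that charge the same amino acid, with a dashed line where both are equal. The pair of YARS and YARS2 lies at the upper right, and that of MARS and MARS2 lies farthest from the line.

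Different probes of a synthetase gene often differed in sign. Of the 10 genes with more than 1 tested probe, the probes had the same sign in 3 (FARSA, NARS and NARS2) and opposite signs in 7, with a median gap of 0.25 between the highest and lowest probe. Over all 2837 genes with more than 1 tested probe, 47.8% had opposite signs and the median gap was 0.21. The widest gap was that of YARS2 (0.92), followed by KARS (0.57). For TARS2, the second brightest probe had ratios of 0.26, 0.11, 0.39 and 0.11 and a log2 fold change of 0.21 (limma, unadjusted p = 0.186), and its vitrified pools all lay above its control pools, as in 1.39% of all probes. The brightest probe of TARS2 had 0.27, 0.25, 0.26 and -0.12. SARS2 had -0.19 by its dimmer probe, which was above background in 1 of 4 vitrified and 4 of 4 control readings and, like the dimmer probe of YARS2, met the filter through its control readings. For SARS2 and YARS2 the opposite signs counted above are therefore a description only.

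**Figure D5:**
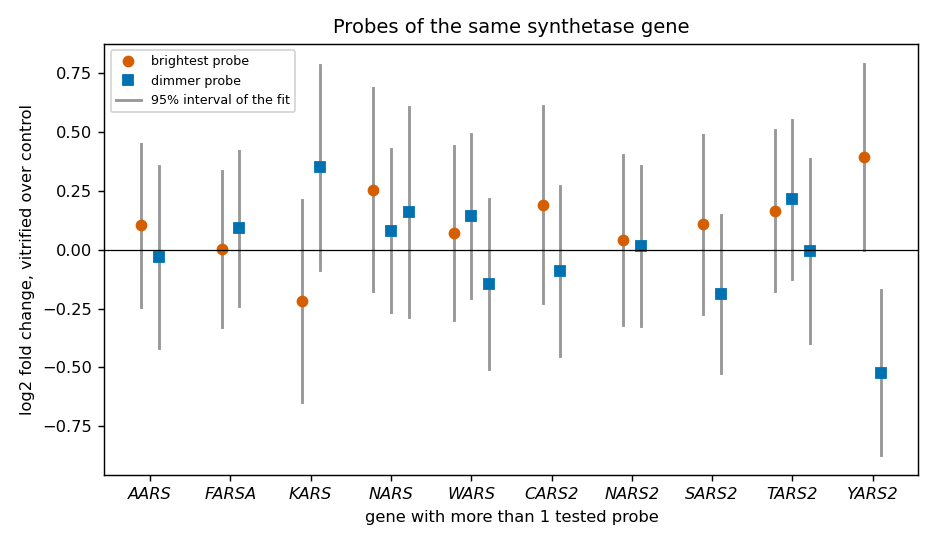
Log2 fold change of vitrified over control (vertical axis) for each tested probe of the 10 synthetase genes with more than 1, with the brightest probe as a circle, dimmer probes as squares and bars for the 95% interval of each. The probes of YARS2 lie farthest apart, at 0.40 and -0.52. The YARS2 probe at -0.52 was below background in 2 of 4 vitrified readings, and its bar is a description with no test.

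The calls depended on single arrays. Without array 3, 0 of 27 genes passed the unadjusted threshold (1.99% of all genes higher and 2.38% lower), and without array 4, MARS, RARS, SARS, YARS and YARS2 were higher and MARS2 was lower (7.16% and 9.84% of all genes). Without array 1, NARS and YARS were higher and MARS2 was lower (4.83% and 5.56% of all genes), and without array 2, YARS2 alone passed (1.55% and 2.93%). Over these fits the log2 fold change of MARS ran from 0.13 to 0.63, that of MARS2 from -0.53 to -0.18, that of RARS from 0.13 to 0.43 and that of SARS from 0.093 to 0.42, with the value nearest 0 for MARS, RARS and SARS without array 3 and for MARS2 without array 2 or 3. In such fits the remaining array of that dye orientation weighs as much as the other pair together.

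Genes that work beside the synthetases were read from lists, whose counts at an unadjusted p under 0.05 stand beside 3.5% of all genes higher and 5.3% lower. Among the scaffolds of the multisynthetase complex and the elongation factors of translation, 0 of 7 genes passed the unadjusted threshold as higher and 2 as lower, with a median of -0.068. AIMP2, a scaffold of the complex, had ratios of -0.34, -1.005, -0.15 and -0.15 and a log2 fold change of -0.41 (SE 0.16; limma, unadjusted p = 0.0342, adjusted p = 0.632). EEF1G, a subunit of elongation factor 1, had ratios of -0.42, -0.91, 0.13 and -0.54 and a log2 fold change of -0.43 (SE 0.17; limma, unadjusted p = 0.0354, adjusted p = 0.634). AIMP2 was lower in the vitrified pool on each array and EEF1G on 3 of 4. The other scaffolds in the list, AIMP1 and EEF1E1, had log2 fold changes of 0.22 and 0.35, the only 2 positive values of the 7 genes. Neither passed the unadjusted threshold. Both lie outside the rule for naming genes and were added after their values were seen. Among 10 relatives of the synthetases and factors for the quality of charged tRNA, 0 passed in either direction (median 0.11). Among 19 genes for maturation of mitochondrial tRNA and mitochondrial translation, 0 were higher and 1 was lower (median 0.073), a share like that of all genes. This was PUS1, which makes pseudouridine in tRNA, with ratios of -0.067, -0.43, -0.66 and -0.44 (limma, log2 fold change -0.40, unadjusted p = 0.0287, adjusted p = 0.631).

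The list of amino acid response genes and ATF4 targets had 2 of 29 genes higher and 4 lower, beside 3.5% and 5.3% of all genes, with a median of -0.045. MTHFD2, a mitochondrial enzyme of folate metabolism, was lower on each array, with ratios of -1.19, -0.80, -0.62 and -0.47 (limma, log2 fold change -0.77, SE 0.15, unadjusted p = 7.34e-04, adjusted p = 0.346). CTH, which makes cysteine from cystathionine, had -0.42, -0.81, -1.34 and -0.40, and PSAT1, of serine synthesis, had -1.20, -0.14, -1.80 and -0.19. BCAT1, a branched-chain aminotransferase, was the fourth, with a log2 fold change of -0.36. PSPH, the last enzyme of serine synthesis, had -0.26, 0.25, 1.02 and 0.73 (log2 fold change 0.44), and DDIT4, an inhibitor of mTORC1, had -0.11, 1.55, 0.73 and 0.89 (log2 fold change 0.77). Both were thus lower on array 1 and higher on the other arrays. ASNS, the asparagine synthetase that is a standard ATF4 target, had a log2 fold change of 0.029, and ATF4 itself had 0.28 with ratios of -0.37, -0.39, 1.71 and 0.15, neither past the threshold. These last 2 genes lie outside the rule for naming genes and were chosen after their values were seen.

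The pools held the markers of a blastocyst, and some of these passed the unadjusted threshold, as did 3.5% of all genes as higher and 5.3% as lower. All 11 trophectoderm genes and all 7 inner cell mass genes tested were above background in all 8 readings. Of the trophectoderm genes 3 were lower (KRT19, TFAP2A and IFNT) and 0 higher, with an array median of 0.26, -0.30, -0.97 and -0.022. The summed level of a list is the log2 of its genes' intensities added up on the linear scale, so that bright genes weigh most. For these genes it was 16.97 to 17.2 in the vitrified and 17.2 to 17.8 in the control pools. Of the inner cell mass genes 3 were higher (SPIC, PRDM14 and KLF4) and 1 lower (NANOG), with an array median of 0.38, 0.58, 0.48 and 0.083 and a summed level of 15.1 to 15.5 against 14.8 to 15.0. The trophectoderm median was lowest on array 3. Of the 27 synthetase genes, 4, 8, 11 and 4 had their highest ratio on arrays 1 to 4, and 8, 8, 5 and 6 had their lowest. YARS and MARS had their highest ratio on array 3, and MARS2 had its lowest there. Of 6 hypoblast genes 1 was higher (PDGFRA) and 1 lower (HNF4A), with a summed level of 15.3 to 16.2 against 15.1 to 16.2. PDGFRA was higher in the vitrified pool on arrays 1 and 2 only and lower on arrays 3 and 4. Its ratios thus split by dye orientation, and its log2 fold change of 0.47 averages over that split. A dye term at an unadjusted p under 0.05 (limma) was found for 3 of the 6 hypoblast genes, against 7.21% of all genes. Of the 14 cumulus cell genes in the list 9 were tested, 0 were higher and 2 were lower (COL1A2 and FSHR), with a summed level of 11.9 to 12.1 against 12.3 to 12.5. Of these 9 genes, 5 (STAR, CYP19A1, NR5A1, COL1A2 and INHBA) were above background in all 8 readings. The cumulus markers HAS2, AMH and LHCGR had 0 readings above background, and GREM1 and VCAN, also not tested, each had 3. The part of these markers in the synthetase values was not tested, and in pooled embryos fewer cells of a type and less RNA per cell cannot be told apart.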

How the data were processed

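RNA of 4 vitrified and 4 control pools was hybridized in pairs to 4 arrays with dyes swapped. For each spot, the deposited intensity files give its median signal and that of its surroundings, with nothing subtracted. The deposited log2 ratios, made by the authors by background subtraction, lowess and quantile normalization, were used as an alternative only. Across probes they matched the loess step (lowest r 0.999) more closely than the quantile step (lowest r 0.981), and they all run Cy5 over Cy3. The authors amplified the RNA over more than 1 round, which could change ratios of dim or long transcripts.

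The fits used limma 3.58.1 under R 4.3.3. The local background was subtracted (floor 0.5), ratios were normalized by loess within and quantile normalization between arrays, turned to vitrified over control, and fitted with a dye term (2 residual and 6.80 prior degrees of freedom). The background limit, the mean plus 2 SD of 153 negative control spots, was passed by 60.1% to 67.3% of probes in a reading. P values were two-sided, and Benjamini-Hochberg adjustment ran over all 28944 tested probes. Each gene took its brightest probe. Of these steps, only the limma fit was tested on simulated data, which were log2 ratios. Alternatives were median centring for loess, normexp correction (offset 50), leaving out in turn the subtraction, the filter, the quantile step, the dye term and each array, a filter on all 8 readings, an intensity trend with a robust fit, the authors' ratios and the mean over probes. All member genes are named. Values by array are given for those at an unadjusted p under 0.05, those with 1 sign on all arrays and a log2 fold change of at least 0.3, the 3 largest per compartment, GARS and KARS, and others where a sentence needs them. The members, lists and tests were chosen with earlier results of these data known. No protein, promoter or probe sequence was used here.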

Additional observations from a re-analysis of the deposited data

Results flagged for a closer look

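In 2 of 27 synthetase genes, 1 array stood apart from the other 3 by Dixon's test, which marks about 1 in 20 groups by chance and marked 5.29% of all genes tested. NARS2 had a ratio of 0.45 on array 2, with -0.12 to -0.048 on the others, and TARS2 had a ratio of -0.12 on array 4, with 0.25 to 0.27 on the others. What set these arrays apart was not tested.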

How the results depend on the processing

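No alternative brought a synthetase gene to an adjusted p under 0.05 (limma). The 2 genes higher at an unadjusted p under 0.05 became 1, YARS, with normexp correction, median centring, no quantile normalization, the authors' ratios, a trend with a robust fit, readings above background in all 8, and the mean over probes, and 0 to 5 with 1 array left out. In the first 6 of these settings YARS2 had 0.36 to 0.40 with p from 0.0508 to 0.0712, and with 1 array left out it had 0.23 to 0.56 with p from 0.0178 to 0.261. The 0 lower genes became 0 to 1 with 1 array left out. The mitochondrial median was -0.012 with the mean over probes and 0.023 to 0.16 with 1 array left out, the cytosolic median was 0.079 to 0.17, and their difference -0.024 to 0.12. The mean over probes also turned KARS (0.066), SARS2 (-0.040) and YARS2 (-0.064). For SARS2 and YARS2 it takes in a dimmer probe that met the filter through its control readings alone. Both values, the loss of the YARS2 call and the mitochondrial median under that setting are therefore a description only. FARSA turned with median centring (-0.0053) and normexp (-0.0047), and LARS with no quantile normalization (-0.016) and the authors' ratios (-0.017). With 1 array left out, 17 genes turned sign in some fit, with the ranges CARS2 -0.0036 to 0.39, FARS2 -0.19 to 0.050, FARSA -0.036 to 0.043, FARSB -0.12 to 0.012, HARS -0.21 to 0.070, IARS -0.0032 to 0.27, IARS2 -0.061 to 0.00026, KARS -0.45 to 0.020, LARS -0.083 to 0.093, LARS2 -0.18 to 0.16, NARS -0.0017 to 0.51, NARS2 -0.098 to 0.18, RARS2 -0.024 to 0.27, SARS2 -0.034 to 0.25, TARS -0.055 to 0.21, WARS -0.084 to 0.22 and WARS2 -0.00071 to 0.35. Of 27 genes, 9 kept their sign in all 14 alternatives and 18 did not, with YARS2 among the 18 only through the mean over probes. The fit is paired by its design, as each ratio sets the vitrified against the control pool of 1 array, so that no further block by replicate was added. With 4 arrays, log2 fold changes under about 0.3 lie within the 95% interval around 0, and some larger ones do too. The interval was -0.048 to 0.80 for MARS (0.38) and -0.77 to 0.066 for MARS2 (-0.35). Dim probes below background in some readings are less certain.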
